A study of Mus musculus with 6 samples.

Results

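The vascular and axon guidance genes described here were the 68 protein-coding genes, of 26323 genes measured, whose symbols name a semaphorin of classes 3 to 7, a plexin, a neuropilin, a netrin, an UNC5 receptor, a SLIT, a ROBO receptor, an ephrin or an EPH receptor. They comprised 20 semaphorins, 9 plexins, 2 neuropilins, 4 netrins, 4 UNC5 receptors, 3 SLITs, 4 ROBO receptors, 8 ephrins and 14 EPH receptors. Membership was set by the symbol and biotype alone, but the families were chosen with earlier results of these data known, so their counts are descriptions. Exon arrays, which carry separate probe sets for single exons, were hybridised with RNA from 3 groups of wild-type mouse cells, 2 arrays a group. The first group was untreated mouse embryonic fibroblasts (MEFs) that had received no factor. The second was CDH5+ cells sorted at day 8 after MEFs were transduced with ERG, GATA2, LMO2, RUNX1c and SCL, and the third was c-KIT+ cells sorted at day 12 of the same protocol. CDH5, or VE-cadherin, joins endothelial cells to each other, and c-KIT binds stem cell factor on blood progenitors and mast cells. MEFs came from E14.5 embryos and were depleted of CD41+, CD31+, c-KIT+ and CD45+ cells before infection. Transduced cultures were kept in a medium with hematopoietic cytokines, and the medium of the untreated MEFs is not given in the sources used. Transduction and sorting by a marker both set the sorted groups apart from untreated MEFs, and their parts cannot be told apart here. Each sorted population was taken from whole cultures by a surface marker. The pairs are described as biological replicates with no account of how their cultures were kept apart, so p-values measure the spread between these arrays. In bulk RNA, fewer cells of a type and less RNA per cell cannot be told apart.

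Guidance proteins tell a growing axon or a sprouting vessel where to go, mostly by repulsion. Secreted class 3 semaphorins bind neuropilins, which signal through plexins, whereas SEMA3E binds plexin D1 directly and membrane semaphorins bind plexins without a neuropilin. SLITs bind ROBO receptors, netrins bind DCC, neogenin and UNC5 receptors, and ephrins on a cell bind EPH receptors on its neighbor. In vessels, ephrin-B2 marks arteries and EPHB4 veins, neuropilins are also co-receptors for VEGF, and ROBO4 is made mainly by endothelium and hematopoietic stem cells. Semaphorins 4A, 4D and 7A and plexin C1 act between cells of the immune system.

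Values are normalized log2 intensities per gene, as deposited by the authors. Array medians lay between 5.54 and 5.62, and the 95th percentile of 884 olfactory receptor genes, used as a background level, lay between 5.90 and 6.04. Differences were tested with limma over all 26323 genes, and a gene was called at a Benjamini-Hochberg adjusted p under 0.05. Replicate arrays correlated across genes at 0.907 for untreated MEFs, 0.944 for CDH5+ cells and 0.969 for c-KIT+ cells. Of 10 endothelial markers 0 were above background on either untreated array, 9 and 10 on the CDH5+ arrays and 3 on each c-KIT+ array, and 8 rose in CDH5+ cells. Leukocyte markers were above background for 1 and 0 of 10 genes in untreated MEFs and for 9 of 10 on each of the 4 sorted-cell arrays, with medians of 7.21 and 7.87 in CDH5+ cells and 8.77 and 8.52 in c-KIT+ cells. Ptprc, which encodes CD45, was the exception at 3.67 to 4.25 on all 6 arrays. Fibroblast markers had medians of 10.72 and 8.85 in untreated MEFs, 9.23 and 7.09 in CDH5+ cells and 7.27 and 7.33 in c-KIT+ cells. The endothelial and leukocyte lists both stood above untreated MEFs on the CDH5+ arrays. Neuronal markers had medians of 4.64 to 5.40 and glial markers of 5.16 to 5.44, below background on every array, with at most 2 genes of each list above it. Smooth muscle markers had medians of 9.43 and 10.12 in untreated MEFs, 6.44 and 5.59 in CDH5+ cells and 5.63 and 5.93 in c-KIT+ cells, and epithelial markers of 5.06 to 6.01. The part of these cell-type differences in the results below was not tested.

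More guidance genes had their highest mean in untreated MEFs than in either sorted population. The group with the highest mean was untreated MEFs for 40 of 68 genes, CDH5+ cells for 16 and c-KIT+ cells for 12. These counts include 17 genes at or below background on all 6 arrays, where the order of means says little. The matching shares of all genes are not given here. Both arrays were above background for 32 genes in untreated MEFs, against 37.5% of all genes, for 25 in CDH5+ cells, against 34.9%, and for 17 in c-KIT+ cells, against 39.4%. On all 6 arrays 17 of the 68 were at or below background. They were Slit1, Robo3, Unc5d, Ntn5, Plxna4, Plxnb3, Sema3g, Sema4f, Sema5b, Sema6c, Efna2, Efnb3, Epha5, Epha6, Epha7, Epha8 and Ephb1, listed here whether or not the naming rule covered them. The median difference of the 68 genes from untreated MEFs was -0.21 in CDH5+ cells, and for c-KIT+ cells it was -0.56, where the medians over all genes were -0.07 and 0.05. The heat map of all 68 genes shows bright cells concentrated in the untreated columns, with Robo4, Plxnd1, Sema4a, Sema4d and Efna1 running the other way in CDH5+ cells.

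**Figure D1:**
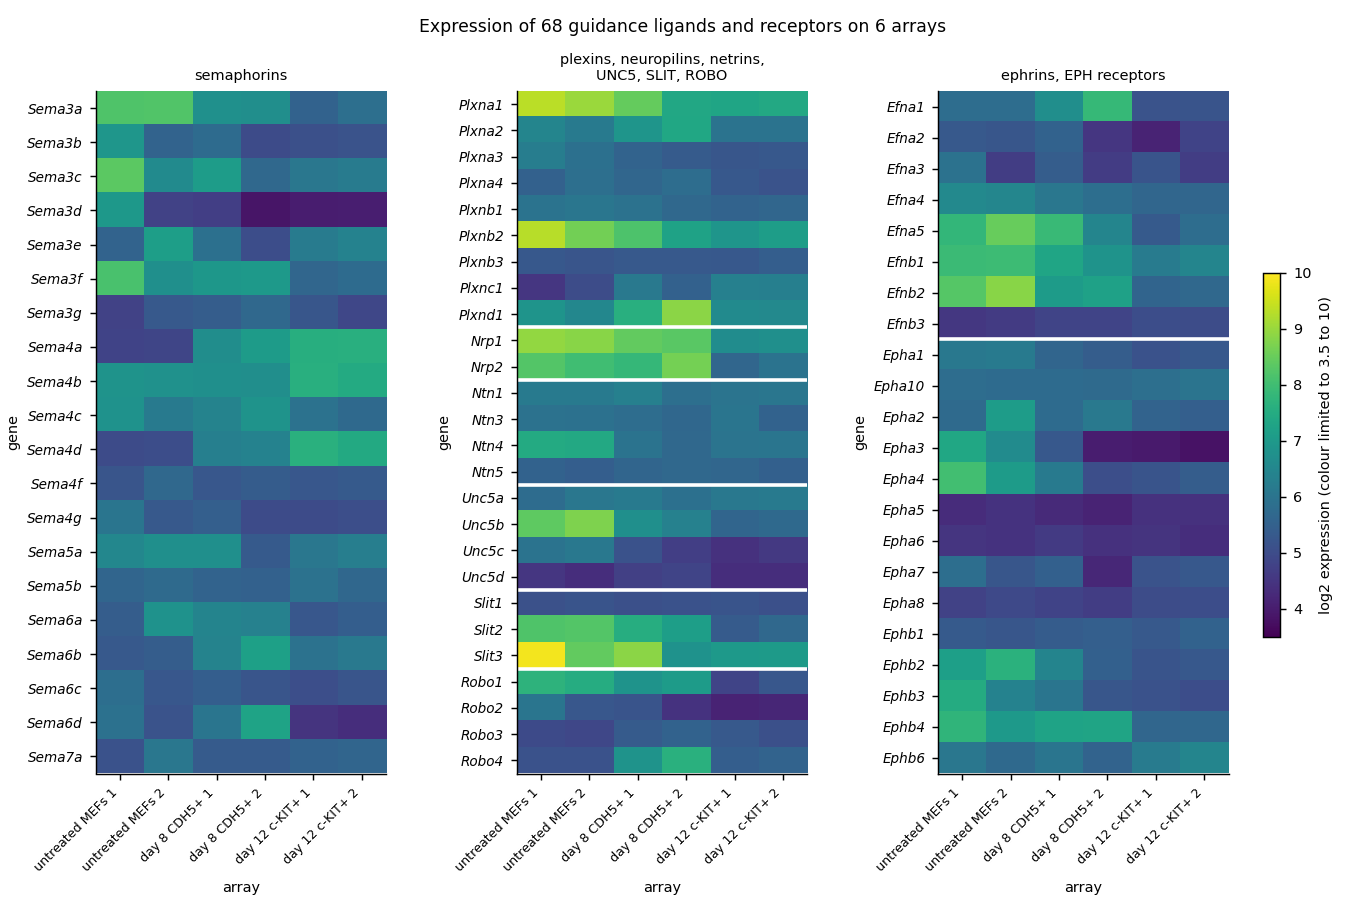
Log2 expression of the 68 guidance genes (vertical axis, by family, white lines between families) on the 6 arrays (horizontal axis), with color from 3.5 to 10. The highest mean fell to untreated MEFs for 40 genes, to CDH5+ cells for 16 and to c-KIT+ cells for 12, counting 17 genes at or below background on all 6 arrays.

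By the moderated F-test over the 3 groups, 14 of the 68 genes changed, against 3.3% of all genes. In CDH5+ cells against untreated MEFs, 3 genes rose (Robo4, Sema4a and Sema4d), where 0.965% of all genes rose. Another 3 fell (Ntn4, Sema3a and Unc5b), where 0.213% of all genes fell. In c-KIT+ cells against untreated MEFs, 3 rose (Plxnc1, Sema4a and Sema4d), where 3.24% of all genes rose. In the same comparison 15 of 68 fell, where 2.72% of all genes fell. Those that fell were Sema3a, Plxnb2, both neuropilins, Ntn4, Unc5b, Unc5c, Slit2, Robo1, Efna5, Efnb1, Efnb2, Epha3, Ephb2 and Ephb4. Altogether 19 genes were called in some test, 5 of them in both sorted populations, and 49 were not called. Both comparisons share the 2 untreated arrays, and the number of arrays limits the precision. With an array left out, the group concerned held 1 array. The share of all genes called in such fits is not given here. In c-KIT+ cells all calls of guidance genes were lost without the first c-KIT+ array and most without the second. In CDH5+ cells the calls of falls were lost whichever array was left out. The calls of rises there were all lost without the first untreated array, the second CDH5+ array or either c-KIT+ array. Over 14 alternative settings the calls in CDH5+ cells held in 4 (Sema4d) to 10 (Sema4a) and those in c-KIT+ cells in 8 (Efna5 and Ephb2) to 13 (Sema3a, Sema4d and Robo1), and no called difference changed sign. Beside the falls in c-KIT+ cells, 3 of 10 fibroblast markers and 5 of 6 smooth muscle markers fell there, and their part in the result was not tested. Without regard to a threshold, both CDH5+ arrays lay above both untreated arrays for 16 guidance genes, against 18.1% of all genes, and below them for 25, against 25.2%. Both c-KIT+ arrays lay above for 12, against 28.6%, and below for 39, against 22.9%. At an unadjusted p under 0.05, limma gave 9 higher and 18 lower in CDH5+ cells, against 6.3% and 8.99% of all genes. In c-KIT+ cells it gave 4 higher and 25 lower, against 11.2% and 9.85%. The plot of the called genes sets out each array.

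**Figure D2:**
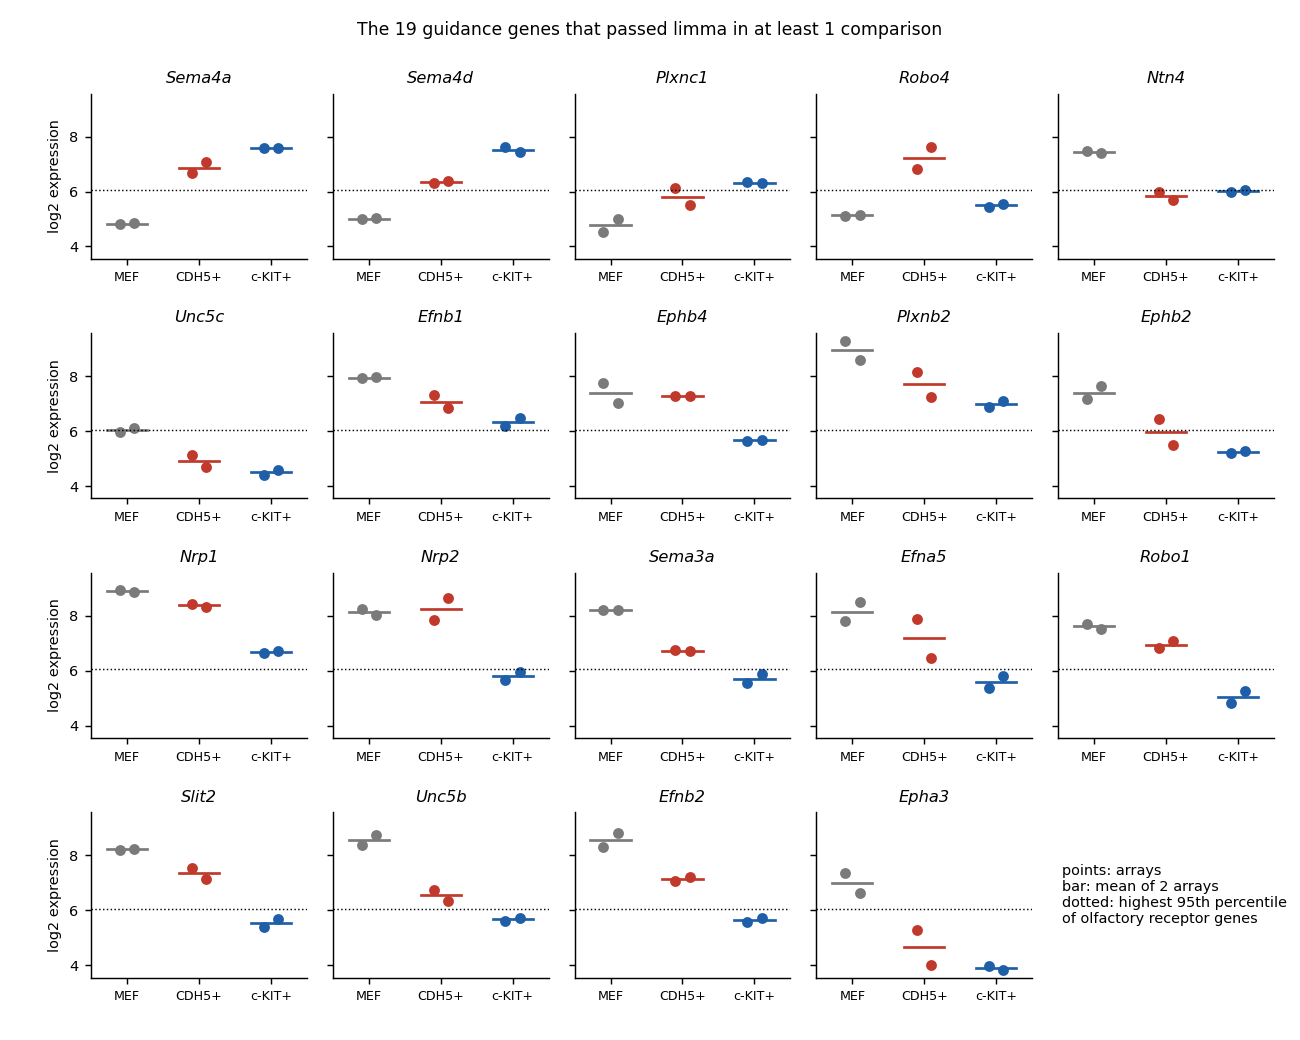
Log2 expression (vertical axis) of the 19 guidance genes called in at least 1 test, by group: untreated MEFs (gray), day 8 CDH5+ cells (red) and day 12 c-KIT+ cells (blue). Points are arrays, bars the mean of 2 arrays, and the dotted line is 6.04, the highest background level. Sema4a and Sema4d step up across the 3 groups, Robo4 is highest in the CDH5+ pair, and the 15 that fell in c-KIT+ cells have both blue points below both gray points.

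Robo4, the endothelial ROBO receptor (ENSMUSG00000032125), rose in CDH5+ cells. It read 5.13 and 5.14 in untreated MEFs, 6.83 and 7.62 in CDH5+ cells and 5.45 and 5.56 in c-KIT+ cells. Both CDH5+ arrays stood above background, the other 4 arrays stood below it, and no array of the CDH5+ pair overlapped another group. The difference from untreated MEFs was 2.10 in CDH5+ cells (standard error 0.30, 95% interval 1.36 to 2.83, limma adjusted p = 0.0425) and 0.37 in c-KIT+ cells (adjusted p = 0.549). From CDH5+ to c-KIT+ cells the difference was -1.72 (adjusted p = 0.157). The call was lost under quantile normalization, median centring and the median of probe sets, and without any array other than the first of the CDH5+ pair. It held in 5 of 14 alternative settings, over which the difference ranged from 1.70 to 2.49 and the adjusted p from 0.0200 to 0.149. At the level of exons, 24 of its 32 probe sets were higher on both CDH5+ arrays than on both untreated arrays and 1 was lower. Its widest probe set rose from 3.39 and 2.83 to 9.18 and 10.19 and then read 5.56 and 6.70 in c-KIT+ cells. Beside the rise of Robo4, 8 of 10 endothelial markers rose in CDH5+ cells, and their part in the result was not tested.

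Sema4a, a membrane semaphorin of dendritic cells and other leukocytes (ENSMUSG00000028064), rose in both sorted populations. It read 4.82 and 4.85 in untreated MEFs, 6.69 and 7.06 in CDH5+ cells and 7.58 and 7.60 in c-KIT+ cells. The groups did not overlap, each standing above the one before. The difference was 2.04 in CDH5+ cells (standard error 0.21, adjusted p = 0.0161) and 2.76 in c-KIT+ cells (standard error 0.21, adjusted p = 0.00310). Sema4d, which binds plexin B1 and CD72 and is abundant on T cells (ENSMUSG00000021451), read 4.99 and 5.02, then 6.30 and 6.39, then 7.62 and 7.44. Its groups were again separate and in the same order. The difference was 1.33 in CDH5+ cells (standard error 0.19, adjusted p = 0.0455) and 2.52 in c-KIT+ cells (standard error 0.19, adjusted p = 0.00301). The call of Sema4d in CDH5+ cells held in 4 of 14 alternative settings, and its call in c-KIT+ cells in 13 of 14. With the median of the probe sets in place of the gene value, the difference in c-KIT+ cells was 4.26 for Sema4a and 3.35 for Sema4d.

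Plxnc1, the receptor of semaphorin 7A (ENSMUSG00000074785), read 4.52 and 5.01 in untreated MEFs, 6.12 and 5.51 in CDH5+ cells and 6.33 and 6.30 in c-KIT+ cells. Both c-KIT+ arrays were above every other array, and 1 CDH5+ array was below background. The rise in c-KIT+ cells was 1.55 (standard error 0.29, adjusted p = 0.0403), and the difference in CDH5+ cells was 1.05 (adjusted p = 0.193). Its ligand gene Sema7a read 5.13 and 6.08, then 5.37 and 5.36, then 5.54 and 5.63. Only the second untreated array was above background, and the untreated pair spanned the other 4. Sema4b was close in untreated MEFs (6.85 and 6.79) and CDH5+ cells (6.73 and 6.71) and read 7.59 and 7.48 in c-KIT+ cells. Both c-KIT+ arrays exceeded the other 4, with a difference from untreated MEFs of 0.72 that was not called (adjusted p = 0.0923) except with dim genes left out (adjusted p = 0.0466). Among the 6 class 4 semaphorins 2 rose in each sorted population and 0 fell, and among the 7 class 3 semaphorins 0 rose and 1 fell in each. Over all genes, 0.965% rose and 0.213% fell in CDH5+ cells and 3.24% rose and 2.72% fell in c-KIT+ cells, and the difference between the classes was not tested. Beside these rises, 9 of 10 leukocyte markers rose in each sorted population, and their part in the result was not tested.

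Sequence upstream of the start is shown for genes called in either direction, since the transduced proteins are DNA-binding factors or their partners. RefSeq promoters on GRCm38.p6 were matched for 59 of the 68 genes, with 75 starts, and for all 19 called genes. Windows of 250 bases before the start were searched on both strands for 5 motifs of the families to which transduced factors belong. The motifs AGGAAG and CCGGAAGT are bound by ETS factors such as ERG. Factors of the GATA family bind AGATAA, those of the RUNX family bind TGTGGT, and SCL with its partners binds E-boxes such as CAGCTG. No match printed below overlaps another. From the called genes, 4 promoters with a single start follow, 5′ to 3′ along the gene, with matches on either strand in capitals. Robo4, which rose in CDH5+ cells, lies at chr9:37401722-37401971 on the plus strand, and Plxnc1, which rose in c-KIT+ cells, at chr10:94944846-94945095 on the minus strand. Unc5b lies at chr10:60831582-60831831 on the minus strand and Sema3a at chr5:13396534-13396783 on the plus strand, as examples of genes that fell in both populations. Ntn4 also fell in both, and its single start, not printed, held 1 match to AGGAAG. The 4 windows are examples and give no share over the called genes.
Robo4: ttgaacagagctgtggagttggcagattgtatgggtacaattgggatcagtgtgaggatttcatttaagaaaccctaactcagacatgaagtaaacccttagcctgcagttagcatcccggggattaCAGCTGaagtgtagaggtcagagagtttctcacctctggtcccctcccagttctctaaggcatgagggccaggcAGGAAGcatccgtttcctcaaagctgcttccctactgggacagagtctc
Plxnc1: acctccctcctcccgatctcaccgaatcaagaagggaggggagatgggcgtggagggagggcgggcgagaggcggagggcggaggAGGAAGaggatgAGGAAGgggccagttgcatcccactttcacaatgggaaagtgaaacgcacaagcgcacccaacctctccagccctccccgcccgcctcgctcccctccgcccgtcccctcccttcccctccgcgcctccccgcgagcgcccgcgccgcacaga
Unc5b: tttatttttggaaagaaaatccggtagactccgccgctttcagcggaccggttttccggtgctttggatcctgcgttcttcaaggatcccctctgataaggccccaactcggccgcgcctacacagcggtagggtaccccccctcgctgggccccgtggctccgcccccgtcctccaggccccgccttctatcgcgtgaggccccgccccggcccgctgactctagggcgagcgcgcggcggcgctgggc
Sema3a: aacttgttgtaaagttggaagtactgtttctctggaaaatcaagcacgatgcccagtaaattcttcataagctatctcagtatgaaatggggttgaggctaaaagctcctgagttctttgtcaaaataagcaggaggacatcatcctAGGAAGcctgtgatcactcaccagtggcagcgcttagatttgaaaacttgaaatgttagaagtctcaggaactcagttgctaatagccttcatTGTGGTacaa
The Robo4 window held 1 match to AGGAAG and 1 to CAGCTG, and the Plxnc1 window 2 matches to AGGAAG. Sema3a held 1 match to AGGAAG and 1 to TGTGGT, and Unc5b held 0 matches to any of the 5 motifs. Only these exact letters were searched, so sequences differing by a letter, such as tgataa in the Unc5b window, were not counted. Over the family, AGGAAG was in 34.7% of the 75 guidance promoters and in 29.5% of all 32851 promoters, and CAGCTG in 16% and 13%. TGTGGT was in 12% and 14%, AGATAA in 4% and 9.99%, and CCGGAAGT in 0% and 2.88%. A match is a description of letters and not a binding site.

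Among class 3 semaphorins 1 of 7 ligands fell in c-KIT+ cells, as did both neuropilins, where 2.72% of all genes fell. The class had a median difference of -1.34, the value of Sema3c, which was not called (limma adjusted p = 0.345). Sema3c read 8.37 and 6.60 in untreated MEFs, and the untreated arrays also differed by over 1 for Sema3b, Sema3d, Sema3e and Sema3f. Sema3a, a ligand of neuropilin 1 that repels axons and endothelial cells (ENSMUSG00000028883), read 8.21 and 8.23 in untreated MEFs, 6.75 and 6.71 in CDH5+ cells and 5.54 and 5.88 in c-KIT+ cells. The groups were separate, and c-KIT+ cells were below background. Sema3a fell by 1.49 in CDH5+ cells (standard error 0.21, adjusted p = 0.0412) and fell by 2.51 in c-KIT+ cells (standard error 0.21, adjusted p = 0.00371). The first call held in 6 of 14 alternative settings and the second in 13 of 14.

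Nrp1, a receptor for semaphorin 3A and for VEGF, read 8.94 and 8.86 in untreated MEFs, 8.45 and 8.34 in CDH5+ cells and 6.66 and 6.73 in c-KIT+ cells. The first 2 groups lay close together and all 6 arrays were above background. The difference was -0.51 in CDH5+ cells (95% interval -0.97 to -0.04, adjusted p = 0.292) and -2.21 in c-KIT+ cells (standard error 0.19, adjusted p = 0.00402). Nrp2, which binds semaphorin 3F and VEGF-C, read 8.26 and 8.02, then 7.83 and 8.65, then 5.64 and 5.97. CDH5+ cells overlapped untreated MEFs, and only the c-KIT+ arrays were below background. Nrp2 fell by 2.33 in c-KIT+ cells (standard error 0.33, adjusted p = 0.0178), against a difference of 0.10 in CDH5+ cells (95% interval -0.70 to 0.91). A single annotated probe set stands for Nrp2, and it read 4.96 and 4.29, then 4.52 and 5.01, then 3.07 and 3.33. These values were below the background level and up to 3.73 from the gene value. On that probe set alone the difference in c-KIT+ cells was -1.43 and was not called, which at such low values says little about the gene.

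Other class 3 ligands with roles in vessels were not called. Sema3e, the ligand of plexin D1, read 5.56 and 7.14 in untreated MEFs, 5.91 and 5.03 in CDH5+ cells and 6.21 and 6.38 in c-KIT+ cells, so that its untreated arrays spanned both c-KIT+ arrays and 1 CDH5+ array. Sema3f read 8.15 and 6.74, then 6.94 and 7.01, then 5.64 and 5.76, with both c-KIT+ arrays the lowest. Its difference in c-KIT+ cells was -1.74 (adjusted p = 0.0929). Without the second untreated array, which leaves 1 array in that group, the difference was -2.44.

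Plxnd1, the endothelial plexin, read 6.88 and 6.51 in untreated MEFs, 7.60 and 8.87 in CDH5+ cells and 6.60 and 6.55 in c-KIT+ cells. Both CDH5+ arrays were above the other 4, but they differed from each other by 1.28. The difference from untreated MEFs was 1.54 (standard error 0.43, 95% interval 0.48 to 2.61, adjusted p = 0.195), and was not called. Of its 44 probe sets, 37 were higher on both CDH5+ arrays and 1 was lower. Plxna1, a co-receptor with neuropilin 1, read 9.32 and 9.03, then 8.48 and 7.41, then 7.33 and 7.42, and had the highest mean of the 9 plexins. Untreated MEFs were above both other groups, with a difference of -1.80 in c-KIT+ cells (adjusted p = 0.0529) that was called in 6 alternative settings, among them without either CDH5+ array. Plxnb2, a receptor of class 4 semaphorins, read 9.30 and 8.61, then 8.17 and 7.25, then 6.90 and 7.11. It stayed above background on every array and fell by 1.95 in c-KIT+ cells (standard error 0.39, adjusted p = 0.0472). Of the 9 plexins 1 rose in c-KIT+ cells, 1 fell and 7 were not called, where 3.24% of all genes rose and 2.72% fell.

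Netrins and UNC5 receptors, 4 genes each, held 2 of the 3 falls in CDH5+ cells, where 0.213% of all genes fell. Both of these genes also fell in c-KIT+ cells, where 2.72% of all genes fell. Unc5b, a netrin receptor of sprouting and arterial endothelium (ENSMUSG00000020099), read 8.38 and 8.73 in untreated MEFs, 6.74 and 6.35 in CDH5+ cells and 5.62 and 5.73 in c-KIT+ cells. Untreated arrays were the highest, c-KIT+ arrays the lowest and below background, and no groups overlapped. Unc5b fell by 2.01 in CDH5+ cells (standard error 0.24, adjusted p = 0.0250) and fell by 2.88 in c-KIT+ cells (standard error 0.24, adjusted p = 0.00376). Both CDH5+ arrays were below both untreated arrays on 22 of its 24 probe sets, and both c-KIT+ arrays on 22 of 24. Beside the falls of Unc5b, Ntn4 and Sema3a in CDH5+ cells, 8 of 10 endothelial markers rose, 3 of 6 smooth muscle markers fell and 0 of 10 fibroblast markers were called, with list medians of 3.32, -2.78 and -1.61, and their part in the result was not tested. Ntn4, a basement-membrane netrin, read 7.46 and 7.42, then 5.97 and 5.69, then 6.00 and 6.04. Both sorted populations were near background and close to each other. Ntn4 fell by 1.61 in CDH5+ cells (standard error 0.20, adjusted p = 0.0281) and fell by 1.42 in c-KIT+ cells (adjusted p = 0.0183). Unc5c, a receptor first known from repulsion of axons by netrin, read 5.98 and 6.10, then 5.13 and 4.71, then 4.42 and 4.57, and fell by 1.54 in c-KIT+ cells (adjusted p = 0.0206). Its untreated arrays were only just above background. Ntn1 read between 5.87 and 6.32 on the 6 arrays, with differences of -0.06 in CDH5+ cells (95% interval -0.62 to 0.50) and -0.13 in c-KIT+ cells (95% interval -0.69 to 0.43).

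Slit2 and Robo1, a ligand and its receptor, both fell in c-KIT+ cells. Slit2 read 8.20 and 8.25 in untreated MEFs, 7.56 and 7.14 in CDH5+ cells and 5.38 and 5.70 in c-KIT+ cells. Robo1 read 7.71 and 7.53, then 6.83 and 7.07, then 4.83 and 5.26. In each gene the groups were separate, in the order untreated, CDH5+, c-KIT+, with the c-KIT+ arrays below background. Slit2 fell by 2.69 (standard error 0.24, adjusted p = 0.00463) and Robo1 fell by 2.58 (standard error 0.24, adjusted p = 0.00512). Their differences in CDH5+ cells, -0.88 and -0.67, were not called (adjusted p = 0.187 and 0.273). Robo1 and Robo4 thus ran in opposite directions on the CDH5+ arrays, Robo1 below and Robo4 above both untreated arrays. Slit3, the SLIT with the highest mean, read 9.88 and 8.44, then 8.86 and 6.81, then 7.0 and 7.04. Replicates of Slit3 lay far apart in the first 2 groups, and its difference of -2.14 in c-KIT+ cells was not called (standard error 0.76, adjusted p = 0.188). All 41 of its probe sets were lower on both c-KIT+ arrays than on both untreated arrays. They were read from the same arrays as the gene value and are not replicates.

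Ephrins and EPH receptors accounted for 6 of the 15 falls in c-KIT+ cells, 3 ligands and 3 receptors. These families hold 8 and 14 of the 68 genes, and 2.72% of all genes fell in c-KIT+ cells. Efnb2, the arterial ephrin (ENSMUSG00000001300), read 8.30 and 8.83 in untreated MEFs, 7.07 and 7.21 in CDH5+ cells and 5.59 and 5.71 in c-KIT+ cells. The 3 groups were separate and c-KIT+ cells were below background. The difference was -1.42 in CDH5+ cells (standard error 0.25, adjusted p = 0.0752), and Efnb2 fell by 2.92 in c-KIT+ cells (standard error 0.25, adjusted p = 0.00392). Ephb4, its venous receptor, read 7.75 and 7.03, then 7.28 and 7.29, then 5.65 and 5.67. CDH5+ cells lay between the untreated arrays and c-KIT+ cells below all others. Ephb4 had a difference of -0.11 in CDH5+ cells (95% interval -0.80 to 0.59) and fell by 1.73 in c-KIT+ cells (standard error 0.28, adjusted p = 0.0271). Of its 26 probe sets, 1 was higher and 1 lower on both CDH5+ arrays, and 24 were lower on both c-KIT+ arrays. The call for Ephb4 was lost without either CDH5+ array.

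Efnb1, another B ephrin, read 7.94 and 7.96, then 7.32 and 6.84, then 6.19 and 6.46, and fell by 1.62 in c-KIT+ cells (adjusted p = 0.0217). Efna5, a repellent of retinal axons, read 7.81 and 8.50, then 7.90 and 6.46, then 5.35 and 5.82, and fell by 2.57 (adjusted p = 0.0495). Only Efnb1 of this pair was above background on both c-KIT+ arrays, and the CDH5+ values of Efna5 overlapped untreated MEFs. Ephb2, which binds B ephrins, read 7.16 and 7.64, then 6.43 and 5.50, then 5.19 and 5.28, and fell by 2.17 (adjusted p = 0.0288). Epha3, a receptor of mesenchymal cells that binds ephrin-A5, read 7.37 and 6.65, then 5.28 and 4.01, then 3.97 and 3.82, and fell by 3.12 (standard error 0.47, adjusted p = 0.0216). It was above background only in untreated MEFs.

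Efna1, an ephrin of endothelium, had its highest values in CDH5+ cells. It read 5.84 and 5.82 in untreated MEFs, 6.70 and 7.86 in CDH5+ cells and 5.17 and 5.19 in c-KIT+ cells. Both CDH5+ arrays were above all others and above background, and the c-KIT+ arrays were the lowest. The difference of 1.45 in CDH5+ cells (standard error 0.39, 95% interval 0.50 to 2.41) was not called (adjusted p = 0.179). Without the first CDH5+ array, which leaves 1 array in that group, the difference was 2.03. Its receptor gene Epha2 read 5.76 and 7.09, then 5.78 and 6.14, then 5.57 and 5.46, with untreated and CDH5+ arrays overlapping and no call. Without the first untreated array, which leaves 1 array in that group, Epha2 had a difference of -1.58 in c-KIT+ cells. In CDH5+ cells against untreated MEFs, 0 of 8 ephrins and 0 of 14 EPH receptors were called by limma. Over all genes 0.965% rose and 0.213% fell there, so a count of 0 in families of this size says little. Sema6b, whose receptors are A plexins and which had the highest mean of its class, read 5.33 and 5.42, then 6.41 and 7.20, then 5.96 and 6.13, with a difference of 1.43 in CDH5+ cells (adjusted p = 0.115). Sema5a, highest of its class, read 6.52 and 6.75, then 6.73 and 5.34, then 6.09 and 6.28, with overlap and no call. Differences of the 31 genes described by name above are drawn with their standard errors in the plot of differences.

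**Figure D3:**
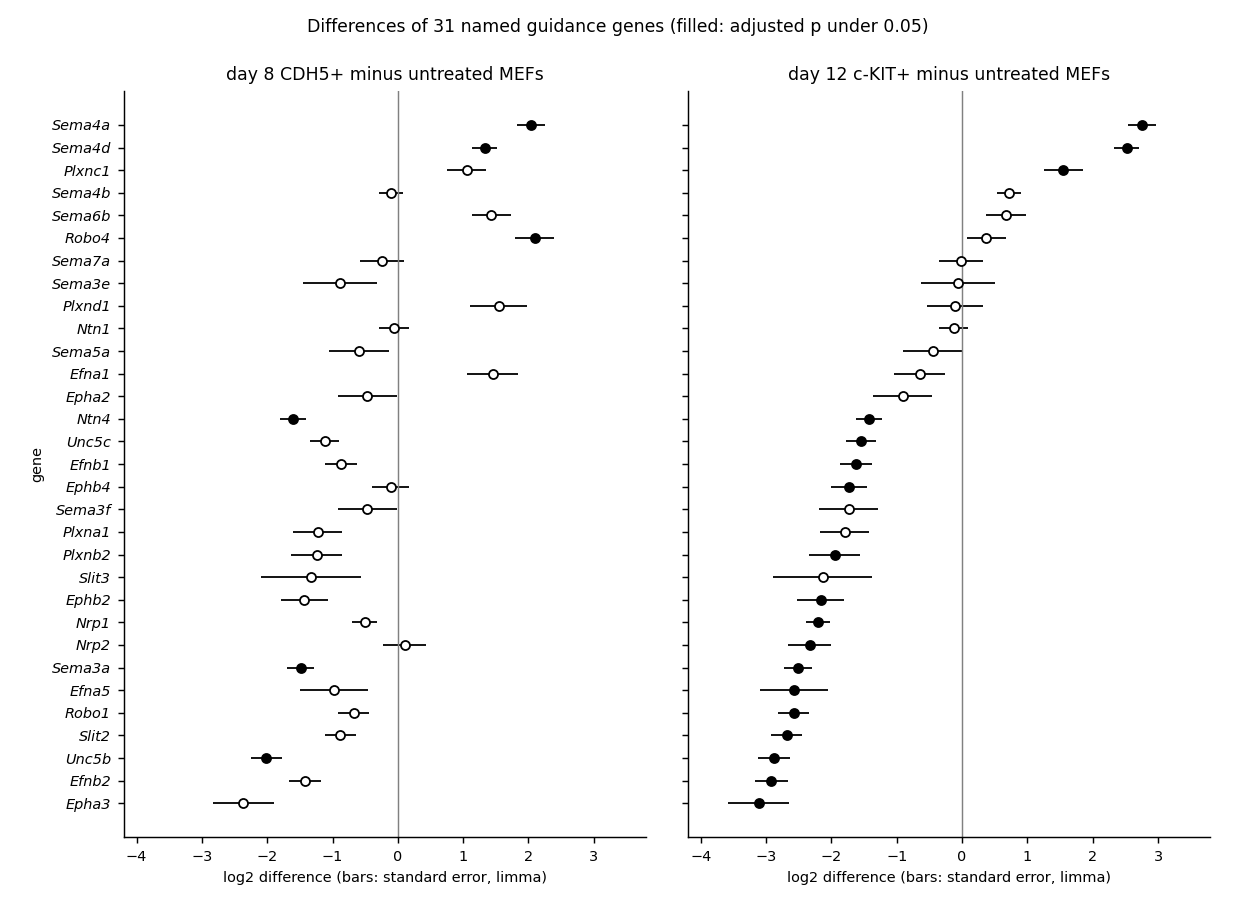
Log2 difference from untreated MEFs (horizontal axis, bars: standard error from limma) for 31 guidance genes (vertical axis), in day 8 CDH5+ cells (left) and day 12 c-KIT+ cells (right); filled points had an adjusted p under 0.05. Filled points are 6 on the left and 18 on the right, and the right panel runs from -3.12 for Epha3 to 2.76 for Sema4a.

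From CDH5+ to c-KIT+ cells, 0 of 68 guidance genes were called by limma in either direction, as were 0% of all genes, and the lowest adjusted p was 0.111, for members and for all genes alike. At an unadjusted p under 0.05, 3 members were higher, against 11.2% of all genes, and 18 were lower, against 4.79%. With a variance trend or a robust variance prior 0 were called as well. Both c-KIT+ arrays lay below both CDH5+ arrays for 35 of 68 genes, against 18.7% of all genes, and above them for 13, against 36.6%. Differences below -2 were -2.44 for Nrp2 (adjusted p = 0.135), -2.23 for Sema6d (adjusted p = 0.194) and -2.10 for Efna1 (adjusted p = 0.166). On the single annotated probe set of Nrp2 the difference was -1.57. Sema6d is outside the naming rule and was picked out after its values were seen. For Nrp1, which went from 8.45 and 8.34 to 6.66 and 6.73, the difference was -1.70 (adjusted p = 0.111), and it was the 1 gene called as lower when dim genes were left out.

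Values within a pair of arrays were not equally close. Replicates differed by over 1 on the log2 scale for 10 of the 68 genes between the untreated arrays, for 12 between the CDH5+ arrays and for 0 between the c-KIT+ arrays, against 13.4%, 6.96% and 4.16% of all genes. The second CDH5+ array was higher than the first for 9 of 10 endothelial markers, with a median gap of 0.95, and for 8 of 10 leukocyte markers, with a median gap of 0.51. It was lower for 10 of 10 fibroblast markers, with a median gap of -2.10. Guidance genes were grouped by their mean over the same arrays, so the following is a description. Of the 8 whose CDH5+ mean lay over 1 above untreated MEFs (Efna1, Plxnc1, Plxnd1, Robo4, Sema4a, Sema4d, Sema6b and Sema6d), 7 were higher on the second array, with a median gap of 0.79. Of the 14 whose mean lay over 1 below, 1 was higher, with a median gap of -0.88, and of the 46 in between, 16 were higher, with a median gap of -0.11. Plxnc1 was the exception among the 8, at 6.12 and 5.51. The part of the marker differences between these arrays in the guidance values was not tested. Gaps between these arrays are drawn in the plot of replicate differences. Which guidance genes were called in CDH5+ cells depended on which of these arrays was left out, each such fit holding 1 CDH5+ array.

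**Figure D4:**
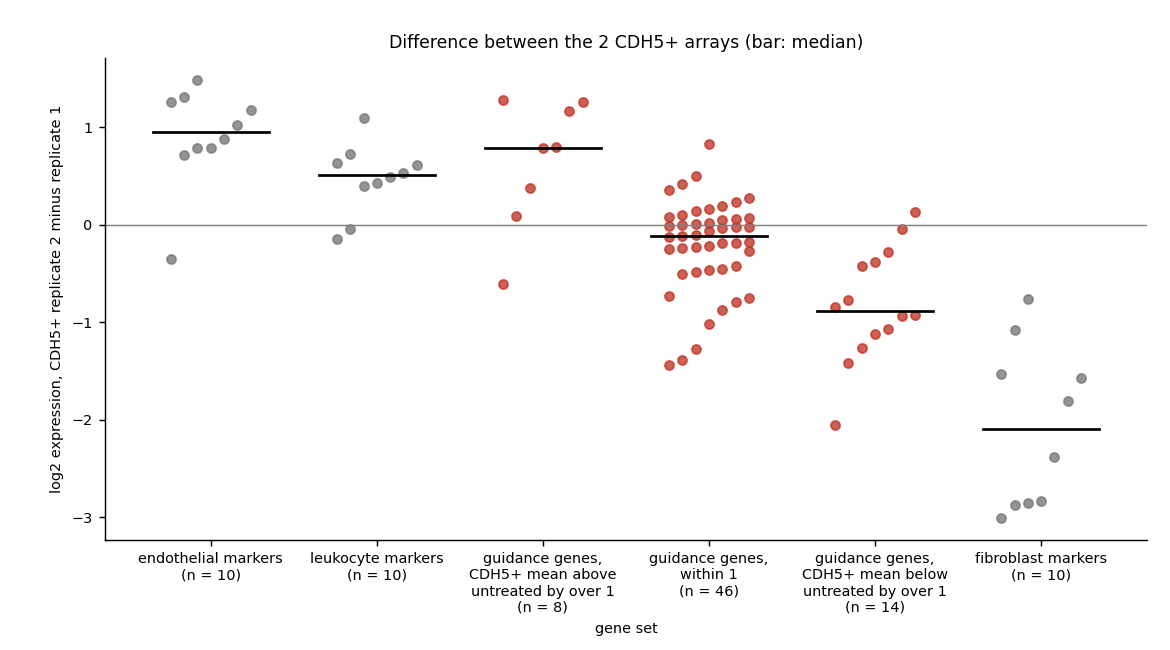
Log2 expression on CDH5+ replicate 2 minus replicate 1 (vertical axis) for endothelial, leukocyte and fibroblast markers (gray) and for guidance genes grouped by their CDH5+ difference from untreated MEFs (red); points are genes and bars medians. Medians run from 0.95 for endothelial markers and 0.51 for leukocyte markers through 0.79, -0.11 and -0.88 for the guidance genes to -2.10 for fibroblast markers.

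In untreated MEFs the genes with replicate gaps over 1 included the class 3 ligands Sema3b, Sema3c, Sema3d, Sema3e and Sema3f, of which those other than Sema3e and Sema3f were picked out after their values were seen. Sema3c read 8.37 and 6.60 and Sema3d 6.98 and 4.78, so the first array was higher for both, whereas Sema3e was higher on the second. Cell-cycle markers also differed between these arrays, with medians of 5.47 on the first and 8.46 on the second, and with 1 and 9 of 10 above background. Fibroblast markers were lower on the second array for 10 of 10 genes, with a median gap of -0.68 and with gaps of -5.37 for Lum and -4.05 for Dcn. The part of these differences in the values of these ligands was not tested.

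Exon-level probe sets moved together for most called genes. The 68 genes had 1883 probe sets with a single gene symbol, from 1 for Nrp2 to 64 for Slit2, with a median of 26. In c-KIT+ cells both arrays were below both untreated arrays on 61 of 64 probe sets of Slit2, 49 of 50 of Plxnb2, 37 of 41 of Robo1, 27 of 38 of Nrp1, 22 of 24 of Sema3a, 13 of 14 of Ntn4 and 12 of 13 of Efnb2. Both were above on 18 of 19 of Sema4a, 24 of 27 of Sema4d and 30 of 36 of Plxnc1. Single probe sets ran wider than the gene values, from -0.95 to 6.57 for Robo4 in CDH5+ cells and from -5.34 to 0.05 for Unc5b in c-KIT+ cells. Less uniform were Nrp1, with 2 of 38 probe sets higher on both c-KIT+ arrays, and Unc5c, with 20 of 30 lower and 1 higher. These spreads are drawn in the plot of probe sets.

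**Figure D5:**
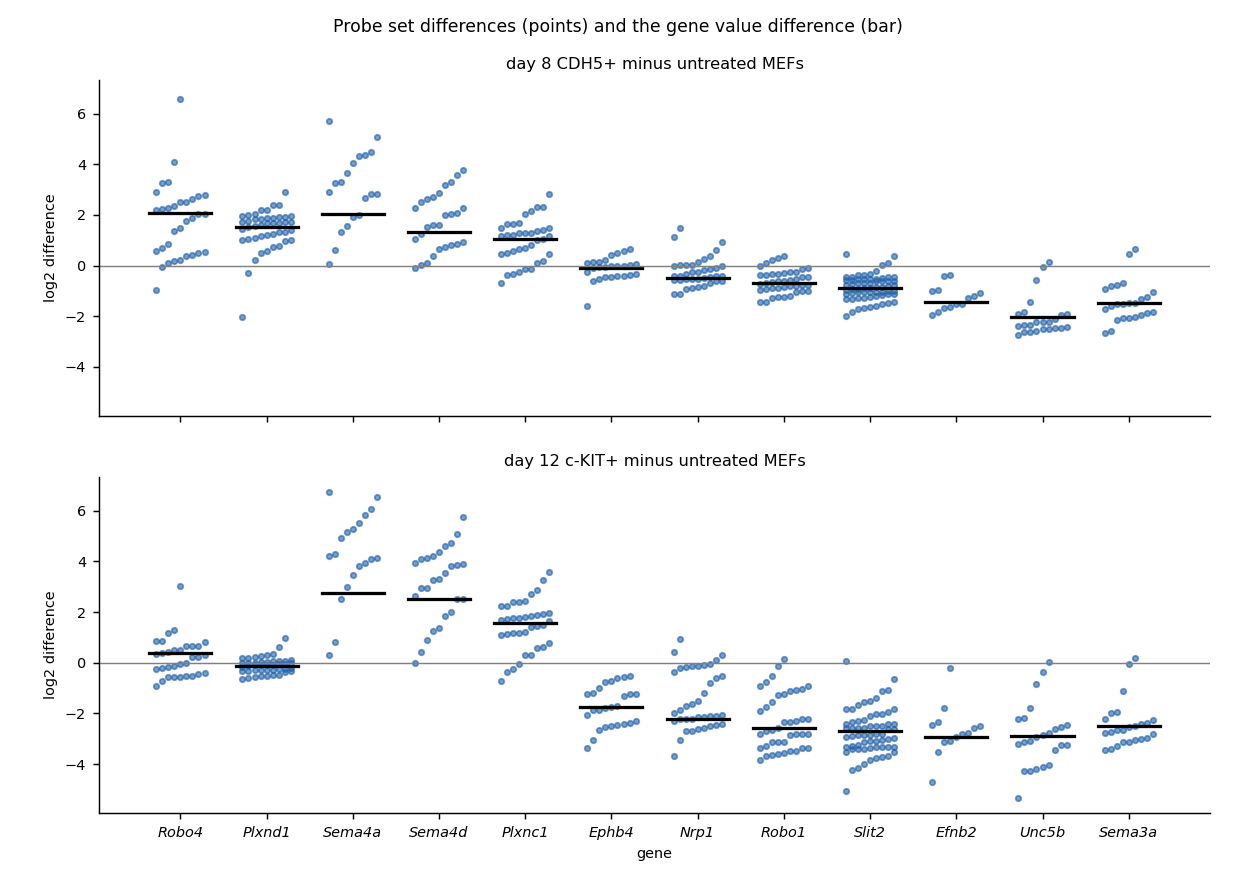
Log2 difference from untreated MEFs (vertical axis) of each probe set (points) of 12 guidance genes (horizontal axis), in day 8 CDH5+ cells (top) and day 12 c-KIT+ cells (bottom), with the gene value as a bar. Nearly all points of Sema4a lie above 0 in both panels, those of Unc5b and Sema3a below 0 in both, and those of Ephb4 straddle 0 at the top and lie below it at the bottom.

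Proteins that work with these ligands and receptors were taken as a list of 48 genes. In CDH5+ cells, where 0.965% of all genes rose and 0.213% fell, 0 of 48 rose and 1 fell, Farp1, a guanine exchange factor of plexin signaling, which fell by 2.21 (adjusted p = 0.0258). In c-KIT+ cells 4 rose and 13 fell, where 3.24% of all genes rose and 2.72% fell. Farp1 read 8.76 and 8.99 in untreated MEFs, 6.90 and 6.43 in CDH5+ cells and 5.33 and 5.74 in c-KIT+ cells, and fell by 3.34 (adjusted p = 0.00336). Its groups were separate, and c-KIT+ cells were below background. Among receptors for netrins and their relatives, Neo1, which encodes neogenin, fell by 2.87 (adjusted p = 0.0204), while Dcc stayed between 4.47 and 4.99, below background, on all 6 arrays. Collapsin response mediator Dpysl3 fell by 3.13 (adjusted p = 0.0158) and the semaphorin-signaling oxidase Mical2 fell by 2.71 (adjusted p = 0.00556). Those that rose were Vav3, an exchange factor of hematopoietic cells that acts downstream of EPH receptors, by 2.79 (adjusted p = 0.0160), the myeloid kinase Fes by 1.60 (adjusted p = 0.0232), the netrin antagonist Draxin by 1.26 (adjusted p = 0.0343) and the Rac exchange factor Tiam1 by 1.16 (adjusted p = 0.0466). The list had a median difference of -0.31 in CDH5+ cells, and for c-KIT+ cells it was -0.40, where the medians over all genes were -0.07 and 0.05.

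The remaining guidance genes outside the naming rule, 37 in number, were not called with all 6 arrays and no filter, and 8 of them were called under at least 1 alternative setting. Apart from the 17 at background and the class 3 ligands above, those with the widest differences in c-KIT+ cells were Epha4, Ephb3 and Robo2, picked out after their values were seen. Epha4, a receptor for both A and B ephrins, read 8.04 and 7.08 in untreated MEFs, 6.19 and 5.07 in CDH5+ cells and 5.18 and 5.43 in c-KIT+ cells. Ephb3 read 7.49 and 6.37, then 6.02 and 5.25, then 5.15 and 5.03. Robo2, a SLIT receptor, read 6.04 and 5.27, then 5.18 and 4.45, then 4.15 and 4.20, and only its first untreated array was above background. Untreated arrays of these genes were above every sorted-cell array, with differences in c-KIT+ cells of -2.25 for Epha4, -1.84 for Ephb3 and -1.48 for Robo2. In c-KIT+ cells Epha4 was called as lower in 5 alternative settings, Ephb3 in 4 and Robo2 in 1. For each gene these included the fit without the second untreated array, which leaves 1 array in that group. Plxna2, a co-receptor for class 3 and class 6 semaphorins, read 6.47 and 6.18, then 6.88 and 7.38, then 5.97 and 5.99, so that both CDH5+ arrays were the highest. Sema6d, a ligand of plexin A1, had the same order at 5.93 and 5.17, then 6.02 and 7.28, then 4.48 and 4.35. Neither passed in CDH5+ cells, with differences of 0.80 and 1.10 (adjusted p = 0.229 and 0.347).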

How the data were processed

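RNA of 6 samples was hybridised to Mouse Exon 1.0 ST arrays. Normalized log2 values of each array, for 26323 Ensembl genes and 1236087 probe sets, were deposited by the authors and used unchanged. How they were normalized, with which software and on which genome build, is not given in the sources used. After the study's methods, which compare the 3 conditions with limma, limma 3.58.1 (R 4.3.3) was fitted to every gene with 3 group means over all 6 arrays, no filter, 3 residual degrees of freedom and the empirical Bayes prior. A moderated F-test and 3 contrasts were adjusted by Benjamini-Hochberg over all genes. Scripts were tested on simulated data. The columns of other samples numbered 0. Samples were grouped by their labels. The guidance genes, the marker lists and the list of 48 partner genes were chosen with earlier results of these data known, so their counts are descriptions. Genes were named if called, if highest in their family, or if known for a role in vessels or leukocytes, which gave 31 of 68. GEO's platform annotation gave 1 gene symbol for 321091 probe sets and several for 7796, and the gene value equalled the mean of its annotated probe sets within 0.001 for 3 of 68 genes. Promoters came from RefSeq on GRCm38.p6. The fit was repeated with quantile normalization, with median centring, without genes near background, with duplicate symbols removed, without 1 array at a time, with a replicate block, with a log2 difference of at least 1, with a variance trend, with a robust variance prior and with the median of probe sets.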

Additional observations from a re-analysis of the deposited data

How the results depend on the processing

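Of 1299 recomputed values under 14 alternatives, 1167 kept their direction and side of the threshold, 101 kept their direction and lost the threshold, 12 gained it, 19 moved and 0 of the called values changed sign. With each array left out in turn, the genes changed over the 3 groups numbered 0 to 14, and the count against untreated MEFs was 0 to 3 higher and 0 to 0 lower in CDH5+ cells. In c-KIT+ cells it was 0 to 3 higher and 0 to 18 lower. The lowest counts in c-KIT+ cells came without either c-KIT+ array, and the cause was not tested. Whether replicate numbers pair the samples is not given in the sources used. Over all genes, same-numbered arrays of 2 groups deviated together with correlations of 0.12, -0.02 and -0.05. The 0.12 was for untreated MEFs with the CDH5+ pair. Low correlations over all genes cannot exclude pairing, since some genes can still shift together. Of 10 fibroblast markers, 0 were higher on the second untreated array, 0 on the second CDH5+ array and 7 on the second c-KIT+ array. With the replicate block, 1 gene, Sema4a, was higher and 0 lower in CDH5+ cells, where the calls of Robo4 (adjusted p = 0.0631), Sema4d, Sema3a, Ntn4 and Unc5b were lost. It left 2 higher and 13 lower in c-KIT+ cells, and 10 changed over the 3 groups. The count higher in CDH5+ cells was 1 under quantile normalization, 1 under median centring and 1 with the median of probe sets, and the cause was not tested. With dim genes left out, 1 gene, Nrp1, was lower in c-KIT+ than in CDH5+ cells and 20 were lower in c-KIT+ cells than in MEFs. Leaving out dim genes also changed the set of genes tested. The shares of all genes called under the alternatives are not given here. Counts under them therefore cannot be set against the shares given for the main fit. With 2 arrays a group, smaller differences were not detectable, and for the 17 genes at background on all 6 arrays the signal limits what a difference could show.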
